A study of Homo sapiens with 12 samples.

Results

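The protein components of the cytosolic ribosome are encoded by single genes scattered over the genome, and their messenger RNAs are among the most abundant in a growing cell. They were followed here in A549/DDP, a line derived from human A549 lung adenocarcinoma cells and resistant to cisplatin. Members were chosen by gene symbol alone: the RPL and RPS genes with an optional A or X suffix, together with RPLP0, RPLP1, RPLP2 and RPSA, and without RPS27A and the pseudogenes. The rule found 76 genes among the 61510 rows of the deposited tables, 46 of the large (60S) and 30 of the small (40S) ribosomal subunit. RPS10 had only 77 counts over the 12 libraries and failed the filter on low counts, so 75 members entered the tests (46 large, 29 small). The series title asks how gambogenic acid (GNA), a xanthone of gamboge resin, acts by way of NRF2, HSF1 and HO-1 in lung cancer cells that resist cisplatin.

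Bulk RNA was sequenced in 4 groups of 3 libraries. The first was shNRF2 cells with GNA, the second shNRF2 cells with DMSO, the third shNC cells with GNA and the fourth shNC cells with DMSO, the solvent. shNRF2 cells carry a short hairpin RNA against NRF2, the transcription factor of antioxidant and detoxification genes encoded by NFE2L2, and shNC cells carry a control hairpin. Both lines were kept in 1 µg/ml cisplatin, so no group is free of the drug, and GNA was given at 4 µM for 24 h from 70% confluence. No source used here gives whether a line is 1 clone. Separate cultures are not stated for the 3 libraries of each group. The p-values therefore refer to the spread among these libraries, possibly a technical one.

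Ribosomal proteins join ribosomal RNA in the nucleolus, and most are made in matched amounts because surplus copies are degraded. Their messenger RNAs start with a run of pyrimidines, the 5′ terminal oligopyrimidine (TOP) tract, through which LARP1 and mTOR set their translation and stability. Free RPL5 and RPL11, bound to 5S ribosomal RNA, can hold the p53 ligase MDM2 when ribosome assembly is disturbed. In cancer lines high ribosomal protein expression goes with rapid growth.

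Library totals ran from 12848607 to 17192671 counts, with 23429 to 25086 genes detected per library. Levels are given as CPM, the deposited counts scaled to TMM-adjusted library totals. The hairpin target NFE2L2 had 46.2, 47.4 and 43.5 CPM with GNA and 47.8, 49.3 and 53.2 CPM with DMSO in shNRF2 cells, and 88.8, 82.9 and 90.1 CPM with GNA and 81.5, 77.7 and 74.3 CPM with DMSO in shNC cells, so its level was lower in every shNRF2 library than in any shNC library. The log2 fold change of NFE2L2 between shNRF2 and shNC was -0.64 ± 0.06 (SE), edgeR adjusted p = 1.21e-08 in DMSO and -0.93 (edgeR adjusted p = 9.02e-12) in GNA. The epithelial keratin KRT8 ran from 7418 to 13298 CPM. Of the other markers listed for A549 cells, KRT18, EPCAM, CDH1, AKR1B10, AKR1C1 and NQO1 were tested, and KRT19 was not among the tested genes. EPCAM was measured less precisely: its log2 fold change with GNA in shNC cells had an SE of 0.21, against 0.04 for KRT8. By contrast, 0 of 4 endothelial, 0 of 5 leukocyte and 0 of 5 alveolar type 2 markers passed the filter on low counts. Of 6 fibroblast markers 3 passed it, COL1A1 at 4.59 to 7.97 CPM being the highest.

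Several libraries stood apart in these genes. In shNC DMSO, 4 of 75 members were above their group mean in library 1, against 72 in library 2 and 47 in library 3. In shNC GNA the numbers were 73, 16 and 1, in shNRF2 DMSO 3, 29 and 70, and in shNRF2 GNA 36, 51 and 21. The ribosomal protein genes thus moved up or down as a block between libraries of the same group. Their median within-group SD of log2 CPM was 0.033 in shNRF2 GNA and 0.091 in shNRF2 DMSO, and 0.13 in shNC GNA and 0.14 in shNC DMSO. The reference was all tested genes with counts in every library and a mean CPM at or above that of the median member. Over these highly expressed genes the same median was 0.032 and 0.056 in the shNRF2 groups and 0.054 and 0.061 in the shNC groups. The share of counts on mitochondrially encoded genes was 9.72% in shNC DMSO 1, against 8.00% and 8.11% in shNC DMSO 2 and 3, and its part in these shifts was not tested. Libraries shNC DMSO 1 and shNC GNA 1 bring the shNC groups closer to each other, so counts below are also given without that pair, a choice made after the values were seen. Since the pair was picked by its values in these members, its removal widens the gap between the shNC groups by construction. Counts without the pair are therefore no support for a fall with GNA or for a difference of responses.

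To show what the members share at their start sites, 30 bases around the RefSeq transcription start are printed for 10 genes that the results below turn on, chosen after their values were seen. Each runs from 10 bases before the start to 20 bases from it, on GRCh38.p14 and 5′ to 3′ on the gene's strand. Capitals mark a TOP tract, counted here as a C at the start followed by at least 4 pyrimidines. RPS24 to RPL35 fell with the hairpin or with GNA, RPS15 and RPS26 had the largest called falls with GNA in shNC cells, RPLP0 to RPL10 rose with GNA in shNRF2 cells, and RPL3 passed no test.
RPS24 (chr10:78033853-78033882, + strand): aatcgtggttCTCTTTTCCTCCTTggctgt
RPLP2 (chr11:809957-809986, + strand): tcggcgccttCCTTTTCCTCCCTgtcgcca
RPS12 (chr6:132814559-132814588, + strand): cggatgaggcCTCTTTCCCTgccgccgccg
RPL35 (chr9:124861938-124861967, - strand): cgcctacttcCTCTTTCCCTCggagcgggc
RPS15 (chr19:1438386-1438415, + strand): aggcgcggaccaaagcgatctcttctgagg
RPS26 (chr12:56041908-56041937, + strand): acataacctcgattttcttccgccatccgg
RPLP0 (chr12:120201092-120201121, - strand): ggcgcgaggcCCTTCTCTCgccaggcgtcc
RPL12 (chr9:127451387-127451416, - strand): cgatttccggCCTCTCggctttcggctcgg
RPL10 (chrX:154398367-154398396, + strand): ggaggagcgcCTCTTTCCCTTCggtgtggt
RPL3 (chr22:39319604-39319633, - strand): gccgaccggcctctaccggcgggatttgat

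The tract was found at a listed RefSeq start in 45 of the 61 members with a promoter entry (73.8%), against 1404 of 27305 genes (5.14%). RPL10 has 3 listed starts, and the window of the start with a tract is printed. In the 300 bases around the starts, on either strand, CCGGAAG, the core of ETS factor sites, was found in 34.4% of members and 12.2% of genes. AAGATGGC, the core of YY1 sites, was found in 9.84% of members and 3.52% of genes, and TATAAA in 8.20% and 14.0%. These matches are a description of the windows and say nothing of which factor binds. Split by the tract, the 44 tested members with one had a median log2 fold change of -0.42 between shNRF2 and shNC in DMSO, and the 16 without one had -0.36. For GNA against DMSO the medians were 0.05 with and -0.02 without a tract in shNRF2 cells, and -0.15 with and -0.18 without a tract in shNC cells. A member without a tract is only one with no listed RefSeq start that met the count used here. The listed start of RPL3, for example, opens a run of 4 pyrimidines, just short of it. No test was run on this split.

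Per length, the levels of the members spread over several orders of magnitude. The median member had a mean of 94.6 FPKM (the deposited values, scaled by gene length and library total). The highest means were 2034 FPKM for RPL23A, which lines the nascent chain exit, and 562 FPKM for RPL27, followed by RPL5. The lowest were 0.183 FPKM for RPS10, 1.57 FPKM for RPS28 and 2.22 FPKM for RPS29. RPL23A alone held 11.5% to 12.7% of the members' counts.

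Near-identical copies bear on several members. The symbols of RPL36A pseudogenes held 91.9% of the counts summed over gene and copies, those of RPS28 62.7%, of RPL17 56.7%, of RPL22 32.4%, of RPS10 31.9%, of RPL26 30.2% and of RPS2 25.1%. In addition, 13 members share exons on the same strand with another gene of GENCODE 29, among them RPL17 and RPS10 with read-through genes, and 28 host a small nucleolar RNA. How multiply mapped reads and strand were handled is not given in the sources used here, and values of these members are uncertain to that extent. The 76 genes lie on 21 chromosomes, 12 of them on chromosome 19.

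As a share of all counts the members held 3.63%, 3.59% and 3.57% in shNRF2 GNA, 3.16%, 3.32% and 3.52% in shNRF2 DMSO, 4.35%, 3.88% and 3.72% in shNC GNA and 3.80%, 4.40% and 4.15% in shNC DMSO. By this measure every shNRF2 library was below every shNC library. The mean share was 3.33 ± 0.180% in shNRF2 DMSO and 4.12 ± 0.300% in shNC DMSO, and 3.60 ± 0.0260% in shNRF2 GNA and 3.98 ± 0.329% in shNC GNA (SD, n = 3 each). The share is a score over the members and was not tested. Genes encoded by the mitochondrial genome took 8.08%, 10.1%, 8.85% and 8.61% of counts on average in shNRF2 GNA, shNRF2 DMSO, shNC GNA and shNC DMSO. Without them in the total, the members' mean share was 3.91%, 3.71%, 4.37% and 4.50% in the same order. As a share of summed FPKM the mean was 4.53%, 3.90%, 4.80% and 4.85% in that order. There the lines overlapped: the shNRF2 GNA libraries, 4.51% to 4.56%, lay above shNC DMSO 1 (4.36%) and shNC GNA 3 (4.50%).

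The subunits moved together. Summed counts of the large subunit were 2.91 ± 0.00674 times those of the small subunit in shNRF2 GNA, 3.00 ± 0.0333 times in shNRF2 DMSO, 2.90 ± 0.0428 times in shNC GNA and 2.89 ± 0.0332 times in shNC DMSO (SD, n = 3 each). The ratio in shNRF2 DMSO libraries, 2.98 to 3.04, lay above that of the other 9 libraries, 2.85 to 2.92.

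**Figure D1:**
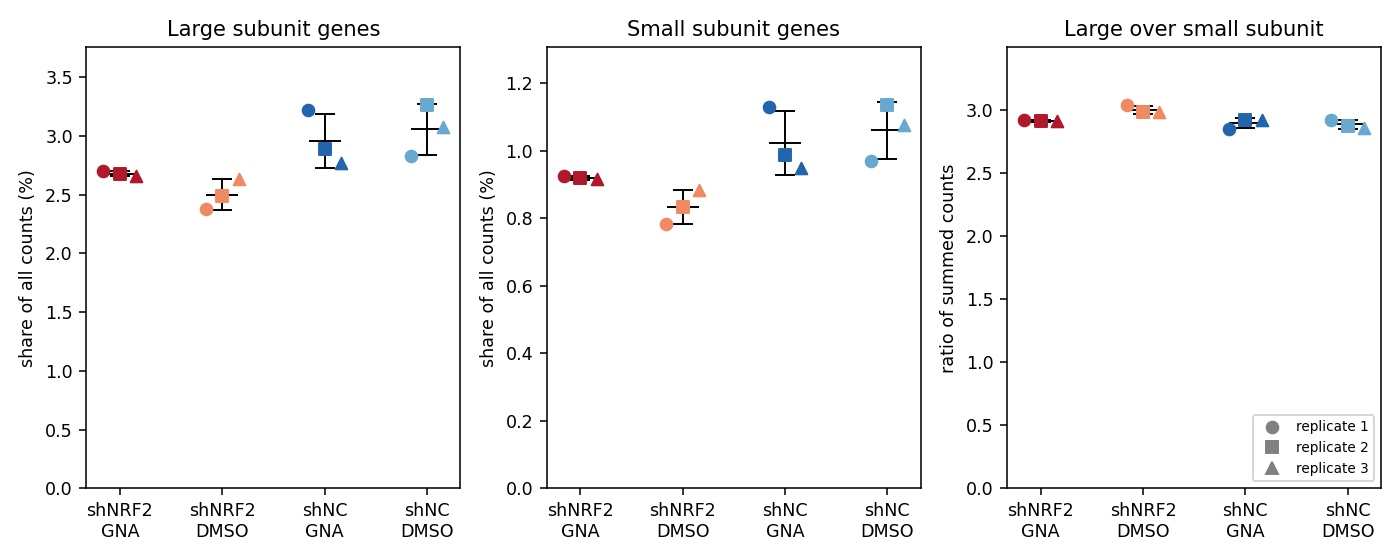
Share of all counts (%) held by the large subunit genes and by the small subunit genes, and the ratio of their summed counts, by library. Points are libraries (shape gives the replicate number), horizontal bars the group mean and whiskers 1 SD (n = 3). Shares are lower in the 6 shNRF2 libraries than in the 6 shNC libraries, while the ratio stays between 2.85 and 3.04.

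Of the 5 comparisons, the one between the lines without GNA had the largest median change in these genes. In DMSO, 68 of 75 members were lower in shNRF2 than in shNC cells and 0 were higher at an edgeR adjusted p under 0.05, which is 90.7% of members, against 18.3% of all 15653 tested genes called lower and 16.8% called higher. The median log2 fold change was -0.42 over the members, from -0.61 to -0.01, against 0.01 over all genes. All 75 fold changes were below 0, and 0 members were higher at an unadjusted p under 0.05 in edgeR. Neither DESeq2 nor limma called a member higher at an adjusted p under 0.05. The libraries of 66 members did not overlap and were lower in shNRF2, against 21.9% of all genes, and those of 0 members were higher without overlap, against 21.3%. Of the large subunit 42 of 46 members were lower (median -0.41), and of the small subunit 26 of 29 (median -0.42).

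RPS24, RPLP2, RPL30 and RPS12 were among the 5 largest falls. RPS24, a 40S protein needed for the processing of small subunit RNA and mutated in Diamond-Blackfan anemia, had 445, 470.4 and 479 CPM in shNRF2 DMSO, against 660.2, 736 and 727 CPM in shNC DMSO. The libraries did not overlap, and RPS24 fell by 34.3% (log2 fold change -0.61 ± 0.06 (SE), edgeR adjusted p = 2.23e-08). RPLP2, one of the acidic proteins of the stalk that recruits translation factors, had 607, 629.9 and 634 CPM in shNRF2 DMSO, against 863, 977 and 911 CPM in shNC DMSO, again without overlap. It averaged 624 ± 14.7 CPM in shNRF2 DMSO and 917 ± 57.3 CPM in shNC DMSO (SD, n = 3 each), a log2 fold change of -0.56 ± 0.05 (SE), edgeR adjusted p = 8.5e-09.

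RPL30, which sits at the contact between the subunits, had 61.0, 63.4 and 69.7 CPM in shNRF2 DMSO, against 87.0, 108 and 90.1 CPM in shNC DMSO (log2 fold change -0.56, edgeR adjusted p = 2.07e-06). RPS12, a 40S head protein, had 169, 175 and 192 CPM in shNRF2 DMSO, against 228, 296 and 251 CPM in shNC DMSO. Its fold change on the log2 scale was -0.53 (edgeR adjusted p = 1.54e-06), and neither RPL30 nor RPS12 overlapped between the lines.

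Of 75 tested members 7 did not pass the test: among them RPL3, RPL10A, RPL17, RPL36A, RPS28 and RPS29, named here after their values were seen. RPL3, which folds around the peptidyl transferase centre, is a highly expressed exception. It had 930.4, 958 and 991 CPM in shNRF2 DMSO, against 917, 996 and 983 CPM in shNC DMSO, with overlapping groups and a log2 fold change of -0.01 ± 0.05 (SE), edgeR adjusted p = 0.905. RPL10A, the other exception above 100 CPM, had 138, 144 and 159 CPM in shNRF2 DMSO, against 144, 178 and 156 CPM in shNC DMSO and a log2 fold change of -0.12 (edgeR adjusted p = 0.212). The remaining 5 were all under 30 CPM, where the fit is less precise: RPS28 had the largest of their log2 fold changes, -0.55 ± 0.23 (SE), edgeR adjusted p = 0.0702. RPL36A, RPL17 and RPS28 are also the members with the largest share of counts on pseudogene symbols.

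By role, the P stalk (RPLP0, RPLP1, RPLP2 and its base protein RPL12) was lower in 4 of 4 members, and the 5S particle proteins RPL5 and RPL11 in 2 of 2. The proteins around the exit tunnel were lower in 6 of 7, the 40S head in 9 of 12 and the late-joining proteins RPL10, RPL24 and RPS26 in 3 of 3. Since 90.7% of all members and 18.3% of all genes were called lower, these counts are not a result about a role. Within the stalk the changes were unequal: the log2 fold change was -0.56 for RPLP2, -0.45 for RPLP1 and -0.42 for RPLP0, but -0.21 for RPL12, whose libraries overlapped. RPL5 had 1888, 1941 and 2024 CPM in shNRF2 DMSO, against 2198, 2479 and 2346 CPM in shNC DMSO and fell by 16.7% (edgeR adjusted p = 0.000111), while RPL11 fell by 25.7%. In bulk RNA fewer cells of a type and less RNA per cell cannot be told apart. The count of 68 ran from 64 to 69 when single libraries were left out and was 69 without the pair shNC DMSO 1 and shNC GNA 1. Since each line stands for 1 hairpin, an effect of the hairpin and another difference between the lines cannot be told apart.

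Other members with a known role of their own were lower as well. RPS6, the substrate that S6 kinase phosphorylates downstream of mTOR, had 1101, 1142 and 1227 CPM in shNRF2 DMSO, against 1250.4, 1487 and 1356 CPM in shNC DMSO. Its groups did not overlap, but the change was among the smaller ones (log2 fold change -0.24, edgeR adjusted p = 0.00204). RPS3, at the messenger RNA entry and also active in DNA repair, fell by 25.3%, without overlap (edgeR adjusted p = 3.48e-06).

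RPS14, lost in the 5q deletion of myelodysplastic syndrome, had 199, 215 and 229 CPM in shNRF2 DMSO, against 262, 299 and 306 CPM in shNC DMSO, without overlap (log2 fold change -0.43, edgeR adjusted p = 4.04e-06). RPSA, also known as a laminin receptor, had 689, 699.9 and 771 CPM in shNRF2 DMSO, against 839, 1003 and 959 CPM in shNC DMSO and a log2 fold change of -0.37 (edgeR adjusted p = 1.87e-05). The shNRF2 libraries of RPSA were all below the shNC libraries. RPL4, whose loop lines the exit tunnel, had a log2 fold change of -0.21 (edgeR adjusted p = 0.00205) and RPL23A of -0.34 (edgeR adjusted p = 4.94e-05).

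RPL22, which can be lost without loss of the ribosome and is mutated in some tumours, had 32.7, 37.8 and 39.6 CPM in shNRF2 DMSO, against 46.6, 40.7 and 40.8 CPM in shNC DMSO and a log2 fold change of -0.22 (edgeR adjusted p = 0.0363). The groups were close but apart, and the counts of RPL22 copies make its level uncertain. RPL39, a short protein of the exit tunnel, averaged 60.7 ± 5.87 CPM in shNRF2 DMSO and 82.9 ± 18.6 CPM in shNC DMSO (SD, n = 3 each), a fall by 27.1% (edgeR adjusted p = 0.000846). These 8 members were named after their values were seen.

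**Figure D2:**
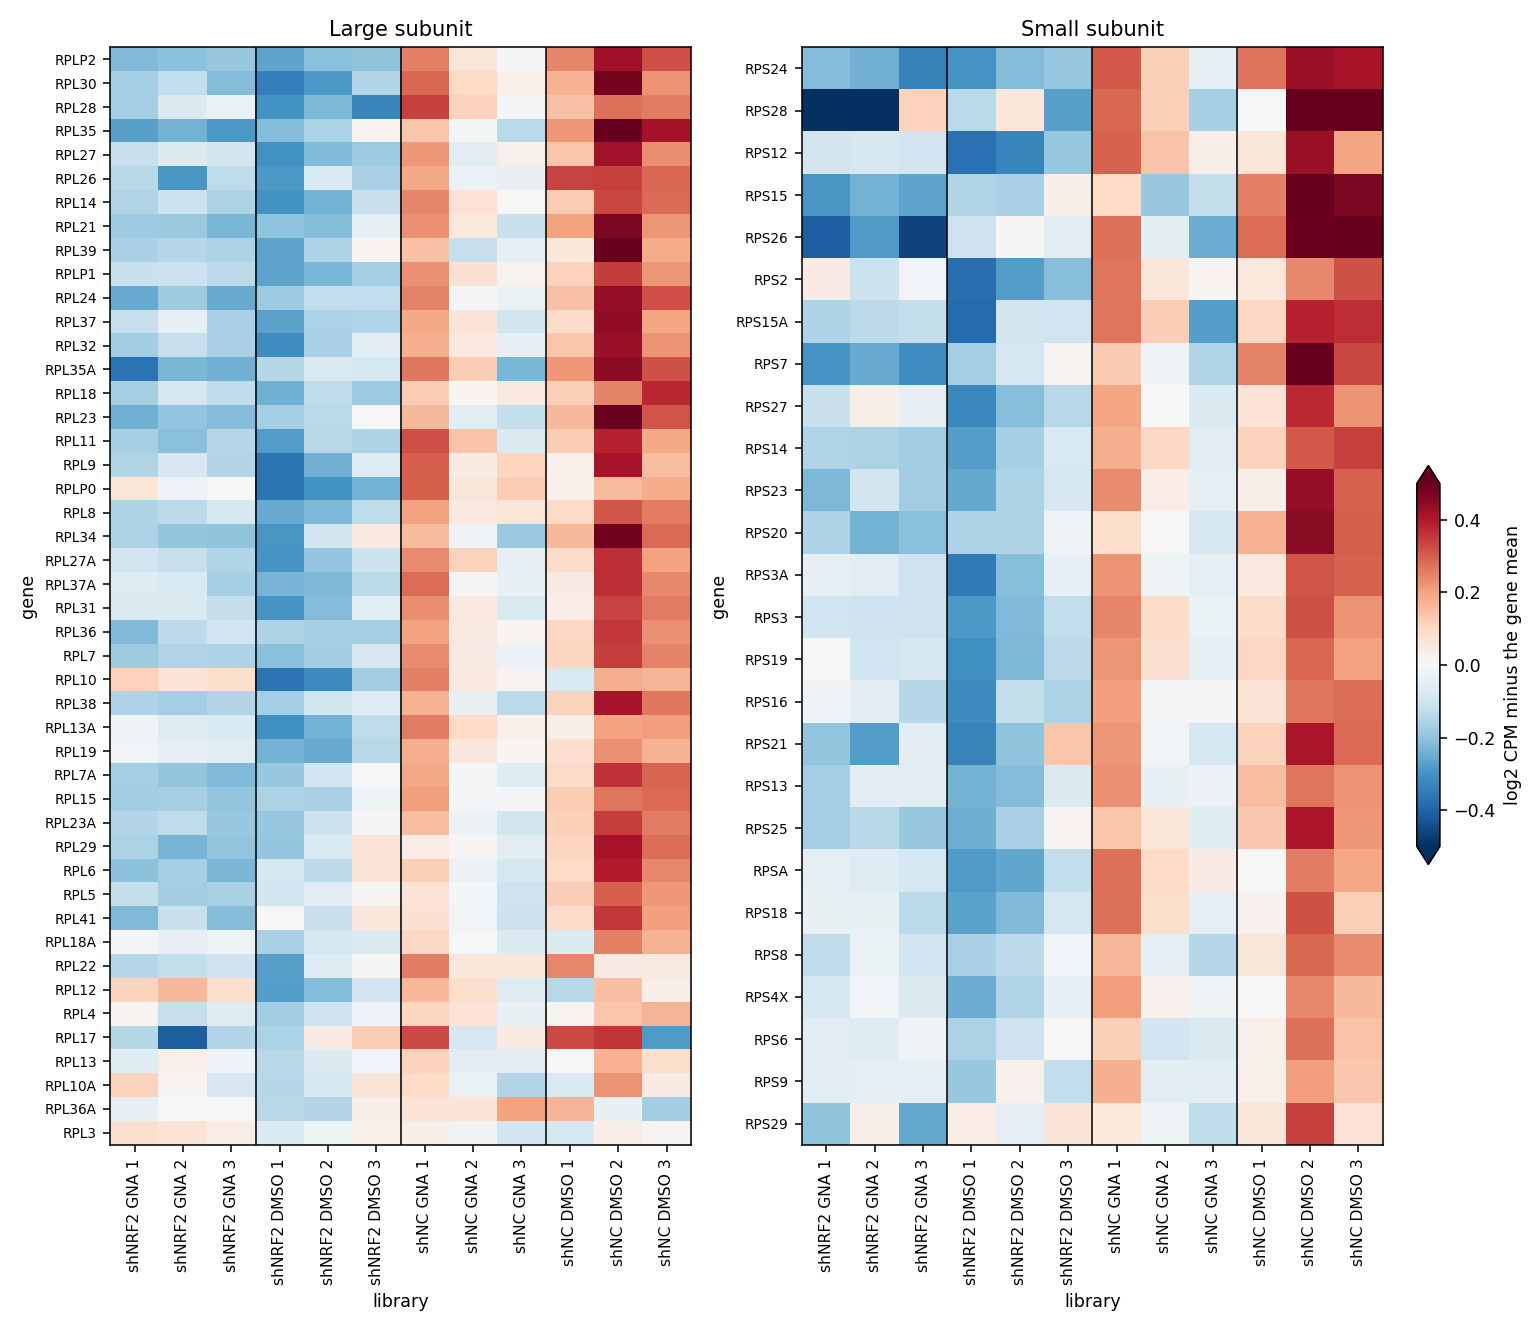
log2 CPM of tested members (3 are not shown) minus their own mean over the 12 libraries (colour, cut at -0.5 and 0.5), with members in rows, ordered by the log2 fold change between shNRF2 and shNC in DMSO, and libraries in columns. The shNC DMSO libraries 2 and 3 are high in nearly all rows, the shNRF2 libraries low, and RPL3 in the bottom row of the left panel is near 0 in every library.

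With GNA the lines differed less in these genes. Under GNA 39 of 75 members were lower in shNRF2 than in shNC cells and 0 were higher, 52.0% of members, against 13.3% of all genes called lower and 12.8% called higher. The median log2 fold change was -0.20, from -0.40 to 0.09, against 0.01 over all genes. Of the members 72 were below 0, with 0 higher at an unadjusted p under 0.05 in edgeR. DESeq2 and limma called 0 higher at an adjusted p under 0.05. The libraries of 51 members were lower without overlap, against 19.7% of all genes, and those of 1 member, RPL3, were higher without overlap, against 21.2%. All 39 were among the 68 lower in DMSO, and the other 29 of the 68 passed only the test in DMSO. The large subunit had 27 of 46 lower and the small subunit 12 of 29.

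The 5 largest called falls were in RPS24, RPS26, RPL35A, RPL11 and RPLP2. RPS24 had 469.6, 463 and 432 CPM in shNRF2 GNA, against 677, 594 and 529 CPM in shNC GNA, without overlap, and fell by 24.2% (edgeR adjusted p = 2.17e-05). RPS26, which joins the 40S subunit late and lies at the messenger RNA exit, had 34.1, 37.2 and 32.9 CPM in shNRF2 GNA, against 54.8, 43.5 and 38.2 CPM in shNC GNA. Its shNRF2 libraries were all below the shNC libraries, by a small gap, and the log2 fold change was -0.38 (edgeR adjusted p = 0.00401).

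RPL35A (chr3:197950190-197956610), another gene mutated in Diamond-Blackfan anemia, had 34.0, 37.5 and 37.2 CPM in shNRF2 GNA, against 52.8, 47.9 and 37.6 CPM in shNC GNA and a log2 fold change of -0.34 (edgeR adjusted p = 0.00588). RPL11 (chr1:23691779-23696835) had 245, 238 and 249 CPM in shNRF2 GNA, against 343, 303 and 261 CPM in shNC GNA. The RPL11 groups did not overlap, and the gene fell by 19.4% (edgeR adjusted p = 0.00168). RPLP2 had 626, 632 and 639 CPM in shNRF2 GNA, against 868, 759.8 and 725 CPM in shNC GNA, a log2 fold change of -0.31 (edgeR adjusted p = 9.58e-05). RPL3 went the other way, at 1031, 1022 and 1e+03 CPM in shNRF2 GNA, against 995, 963 and 913 CPM in shNC GNA, but did not pass the test (log2 fold change 0.09, edgeR adjusted p = 0.16).

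The P stalk was lower in 3 of 4 members under GNA, the 5S particle proteins in 2 of 2, the tunnel exit in 3 of 7, the 40S head in 5 of 12 and the late-joining proteins in 2 of 3. Beside 52.0% of all members and 13.3% of all genes called lower, these counts are not a result about a role. RPL12 and RPL10, called lower in DMSO, had log2 fold changes of 0.06 and -0.02 under GNA (edgeR adjusted p = 0.557 and 0.89). The count of 39 rests on library shNC GNA 1, which was above its group mean in 73 of 75 members: without it 13 members were lower, and without the pair shNC DMSO 1 and shNC GNA 1, 26 were lower and 1 was higher. Without library shNRF2 GNA 3 it was 23, and limma on log2 FPKM gave 16. Shares of all genes called in these fits are not given.

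**Figure D3:**
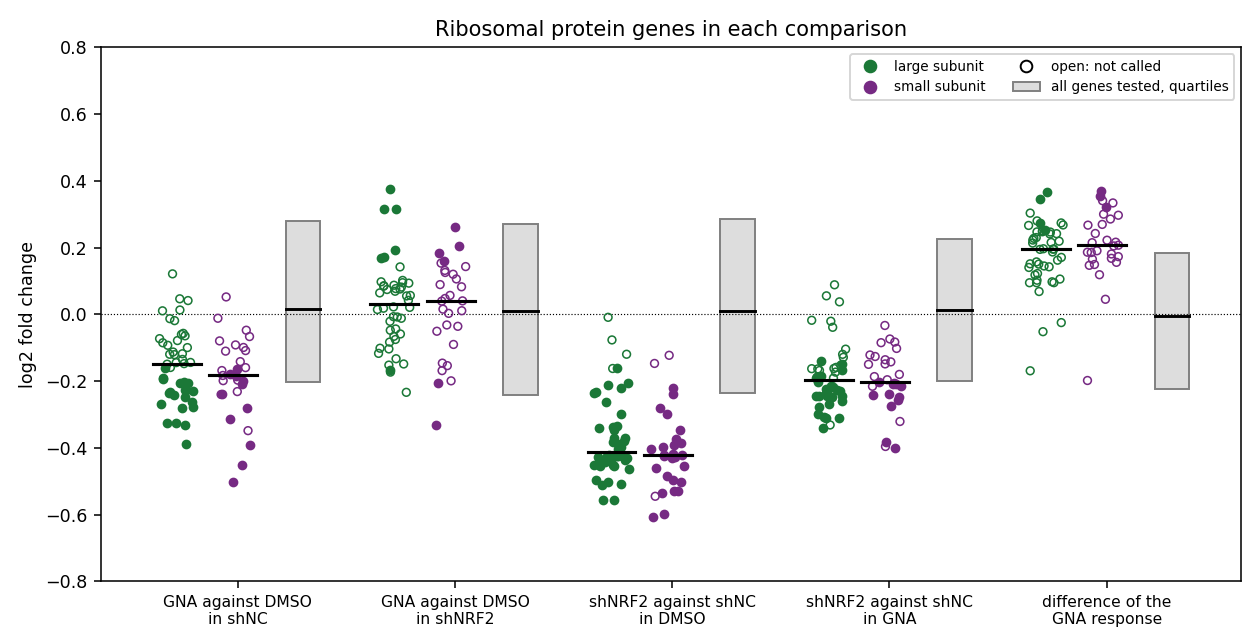
log2 fold change of every tested member in the 5 comparisons, for the large (green) and the small subunit (purple). Filled points passed the edgeR test, thick bars are medians, and grey boxes give the quartiles and median of all 15653 genes. The members are lowest between shNRF2 and shNC in DMSO, where the medians are -0.41 and -0.42 and 68 points are filled.

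In shNC cells GNA was followed by a smaller fall, one-sided in its edgeR calls. With GNA 32 of 75 members were lower than with DMSO and 0 were higher, 42.7% of members, against 16.1% of all genes called lower and 14.6% called higher. The median log2 fold change was -0.17, from -0.50 to 0.12, against 0.02 over all genes. Of the members 69 were below 0, with 0 higher at an unadjusted p under 0.05 in edgeR. DESeq2 and limma called 0 higher at an adjusted p under 0.05. The libraries of 11 of 75 members were lower without overlap, a smaller share than the 20.2% of all genes. Those of 0 members were higher without overlap, against 20.5%. The members' share of all counts overlapped between the groups, 3.72% to 4.35% with GNA and 3.80% to 4.40% with DMSO. The large subunit had 21 of 46 lower (median -0.15) and the small subunit 11 of 29 (median -0.18). The comparison shares the shNC DMSO libraries with that of the lines in DMSO, and the shNC GNA libraries with that of the lines under GNA, so these are not independent of each other.

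RPS15, a 40S head protein needed for export of the small subunit, had the largest fall. It had 138, 113 and 118 CPM in shNC GNA, against 153, 191 and 179 CPM in shNC DMSO. The groups did not overlap, and RPS15 averaged 123 ± 13.1 CPM in shNC GNA and 174 ± 19.0 CPM in shNC DMSO (SD, n = 3 each), a fall by 29.4% (log2 fold change -0.50 ± 0.07 (SE), edgeR adjusted p = 5e-06). RPS26 had 54.8, 43.5 and 38.2 CPM in shNC GNA, against 55.0, 63.7 and 67.3 CPM in shNC DMSO, separated only just, since shNC GNA 1 nearly reached shNC DMSO 1. Its log2 fold change was -0.45 (edgeR adjusted p = 0.00048). RPS7 (chr2:3575260-3580920), a 40S body protein that also binds MDM2, had 346, 312 and 285 CPM in shNC GNA, against 375, 463 and 398 CPM in shNC DMSO without overlap and a log2 fold change of -0.39 (edgeR adjusted p = 5.13e-05).

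RPL35 and RPL23 followed. RPL35, at the exit tunnel where the signal recognition particle docks, had 589, 532 and 488 CPM in shNC GNA, against 621, 771 and 715 CPM in shNC DMSO (log2 fold change -0.39, edgeR adjusted p = 6.38e-05). RPL23 (chr17:38847860-38853721), at the face between the subunits and another MDM2 binder, had 488, 419 and 402 CPM in shNC GNA, against 488, 614 and 543 CPM in shNC DMSO. The RPL23 groups overlapped, and its log2 fold change was -0.33 (edgeR adjusted p = 0.000444).

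RPL23, RPL35 and RPS7 had the profiles most like that of RPS15. Over the 12 libraries Pearson's r of log2 CPM with RPS15 was 0.978 for RPL23, 0.976 for RPL35 and 0.968 for RPS7, and the median over all other members was 0.811. These points share library, depth and scaling, and r is given as a description.

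The P stalk was lower with GNA in 1 of 4 members, the 5S particle proteins in 1 of 2, the tunnel exit in 4 of 7, the 40S head in 3 of 12 and the late-joining proteins in 2 of 3. With 42.7% of all members and 16.1% of all genes called lower, these counts are not a result about a role. RPL5 was the called member of the 5S particle, at 2122, 2004 and 1879 CPM in shNC GNA, against 2198, 2479 and 2346 CPM in shNC DMSO (log2 fold change -0.23, edgeR adjusted p = 0.000718). The number of calls moved with the libraries: it was 15 without shNC DMSO 2 or without shNC GNA 3, 49 without shNC DMSO 1, 56 without shNC GNA 1 and 64 without the pair shNC DMSO 1 and shNC GNA 1, which was picked by its values in these members. By limma on log2 FPKM it was 5. The share of all genes called in these fits is not given. On library totals alone 9 members were lower and 1 higher, with a median of -0.06 against 0.12 over all genes, so the members lay below the bulk of genes by about the same distance under both scalings.

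**Figure D4:**
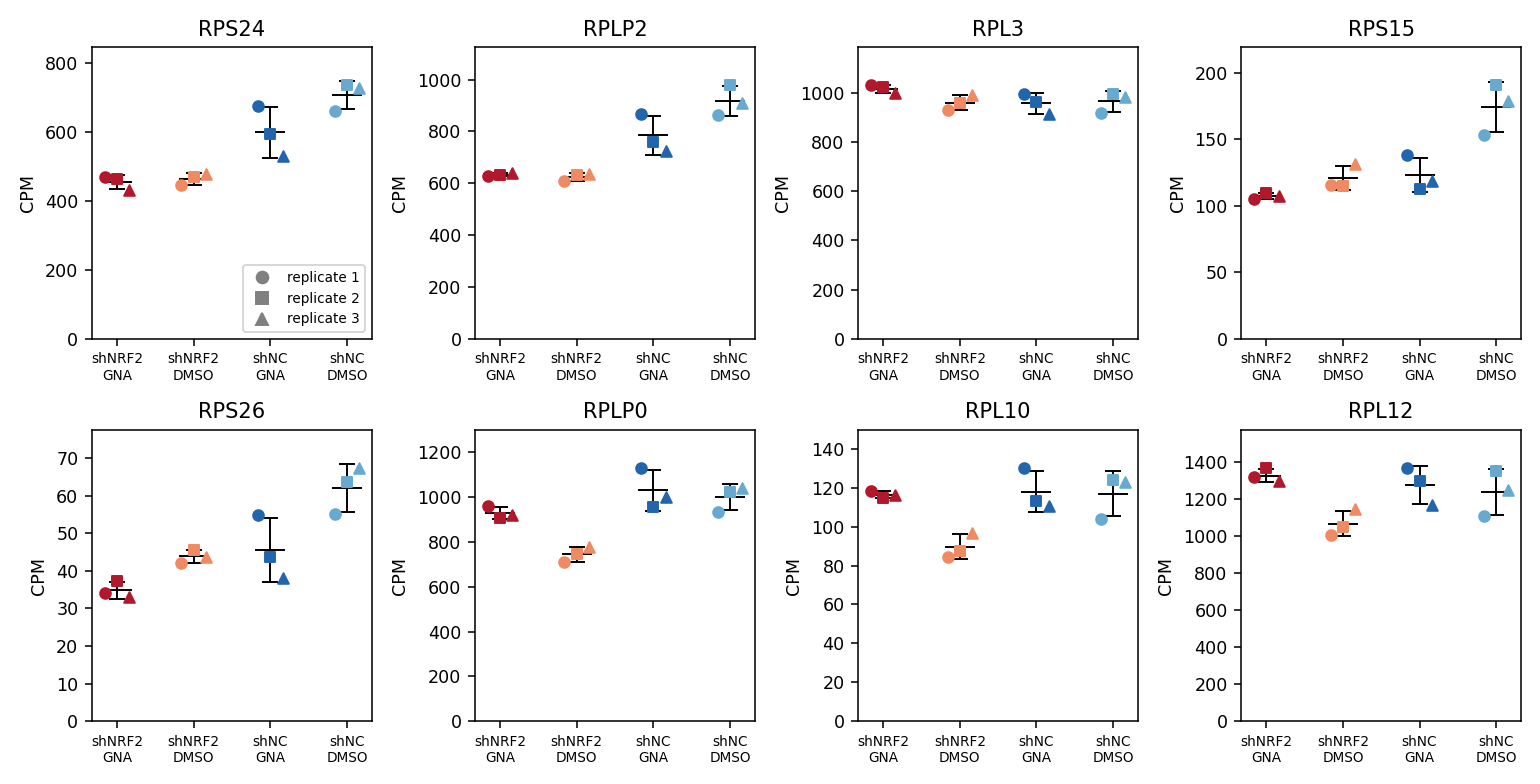
CPM on TMM-scaled totals by library for 8 members, chosen after their values were seen, with the group mean (bar) and 1 SD (whiskers, n = 3). RPS24 and RPLP2 are lower in both shNRF2 groups, the 12 RPL3 libraries lie close together, RPS15 and RPS26 are highest in shNC DMSO, and RPLP0, RPL10 and RPL12 are lowest in shNRF2 DMSO.

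In shNRF2 cells the members were called in both directions with GNA on TMM-scaled totals. With GNA 10 of 75 members were higher than with DMSO and 3 were lower, 13.3% and 4.00% of members, against 16.7% and 17.0% of all genes. Both shares are at or below the background. The median log2 fold change was 0.04, from -0.33 to 0.38, against 0.01 over all genes. The libraries of 16 members were higher without overlap and of 10 members lower without overlap, against 22.8% and 22.1% of all genes. On library totals alone 20 members were higher and 1 was lower. The members' share of all counts was higher in each of the 3 GNA libraries, 3.57% to 3.63%, than in any DMSO library, 3.16% to 3.52%, a mean difference of 0.264 percentage points (0.629 as a share of summed FPKM). These groups share no library with the comparison in shNC cells.

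The members that rose were RPL10, RPLP0, RPL12, RPS2, RPS12, RPL28, RPL19, RPL13A, RPS27 and RPS19. RPL10, which joins the 60S subunit last and lies near the peptidyl transferase centre, had 118, 115 and 116 CPM in shNRF2 GNA, against 84.6, 87.7 and 96.9 CPM in shNRF2 DMSO. All 3 GNA libraries lay above the DMSO libraries, and RPL10 averaged 116 ± 1.86 CPM in shNRF2 GNA and 89.7 ± 6.4 CPM in shNRF2 DMSO (SD, n = 3 each) (log2 fold change 0.38 ± 0.07 (SE), edgeR adjusted p = 0.000118). RPLP0, the stalk base that holds the acidic stalk proteins, had 959, 906 and 920.2 CPM in shNRF2 GNA, against 713, 746 and 779 CPM in shNRF2 DMSO, without overlap. Its log2 fold change was 0.32 (edgeR adjusted p = 4.59e-05). RPL12, beside RPLP0 at the stalk base, had 1320.2, 1368 and 1298 CPM in shNRF2 GNA, against 1009.7, 1052 and 1145 CPM in shNRF2 DMSO.

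The RPL12 groups were also apart, and its log2 fold change was 0.31 (edgeR adjusted p = 0.000204). RPS2, at the messenger RNA entry, had 697, 629 and 672 CPM in shNRF2 GNA, against 522, 558 and 585 CPM in shNRF2 DMSO and a log2 fold change of 0.26 (edgeR adjusted p = 0.00214). RPS12 had 206, 207 and 205 CPM in shNRF2 GNA, against 169, 175 and 192 CPM in shNRF2 DMSO. It was higher in every GNA library (log2 fold change 0.21, edgeR adjusted p = 0.0295). The other 5 that rose had log2 fold changes from 0.16 for RPS19 to 0.19 for RPL28.

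The closest profiles to RPL10 were among the same genes. Pearson's r of log2 CPM with RPL10 over the 12 libraries was 0.945 for RPLP0, 0.920 for RPL12 and 0.906 for RPS2, and its median over all other members was 0.630. RPL10, RPLP0 and RPL12 were lower in shNRF2 than in shNC cells in DMSO, and their shNRF2 GNA libraries overlapped the shNC GNA libraries. RPLP0 was nevertheless called lower in shNRF2 under GNA (log2 fold change -0.15, edgeR adjusted p = 0.0422), whereas RPL10 and RPL12 were not called. RPL12 had 1320.2, 1368 and 1298 CPM with GNA and 1009.7, 1052 and 1145 CPM with DMSO in shNRF2 cells, and 1370.3, 1299 and 1168 CPM with GNA and 1109.6, 1356 and 1249.7 CPM with DMSO in shNC cells. Its shNRF2 DMSO libraries and shNC DMSO 1 were the low ones, and the other libraries lay between 1168 and 1370.3 CPM.

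RPS26, RPS7 and RPL41 fell with GNA in shNRF2 cells as they did in shNC cells. RPS26 had 34.1, 37.2 and 32.9 CPM in shNRF2 GNA, against 42.2, 45.5 and 43.8 CPM in shNRF2 DMSO, without overlap (log2 fold change -0.33, edgeR adjusted p = 0.00978). RPS7 had 258, 266 and 255 CPM in shNRF2 GNA, against 281, 298 and 319 CPM in shNRF2 DMSO and a log2 fold change of -0.21 (edgeR adjusted p = 0.0194). RPL41, the shortest ribosomal protein, had 110.4, 119 and 111 CPM in shNRF2 GNA, against 129, 119 and 134 CPM in shNRF2 DMSO, just apart, and a log2 fold change of -0.17 (edgeR adjusted p = 0.0496). RPS26 and RPS7 had their lowest mean in shNRF2 GNA and their highest in shNC DMSO, and both were called lower in all 4 comparisons of groups.

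Across the lines, 28 members passed the test with GNA only in shNC (lower), 9 only in shNRF2 (higher), 3 were lower in both, 34 passed in neither, and RPS27 was lower in shNC and higher in shNRF2. The stalk rose in 2 of 4 members in shNRF2 cells, the tunnel exit in 1 of 7 (RPL19), and the 40S head in 2 of 12 (RPS12 and RPS19), while the 5S particle proteins passed in 0 of 2. Beside the 16.7% of all genes called higher, such counts in lists of this size are not a result about a role. Without library shNRF2 DMSO 1 or shNRF2 DMSO 2, 5 members were higher in place of 10, and without shNRF2 GNA 3, 6 were higher and 0 lower. RPL10, RPLP0, RPL12 and RPS2 passed the test in every alternative tried.

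Whether the response to GNA differed by line was tested directly, from the same 4 groups. Its log2 value is the change with GNA in shNRF2 minus that in shNC. For 7 of 75 members it was above 0 at an edgeR adjusted p under 0.05 and for 0 below, 9.33% of members, against 3.59% of all genes called above 0 and 3.24% below. The median difference was 0.20 over the members, from -0.20 to 0.37, against -0.0048 over all genes, and 4 members had a difference below 0. At an unadjusted p under 0.05 in edgeR 0 members were below 0, and DESeq2 and limma also called 0 below.

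RPS27, a 40S protein with a zinc finger, had 289, 319 and 304 CPM with GNA and 249.8, 269.9 and 283 CPM with DMSO in shNRF2 cells, and 358, 312 and 298 CPM with GNA and 329, 405 and 366 CPM with DMSO in shNC cells. GNA libraries were above DMSO libraries in shNRF2 cells, while in shNC cells the groups overlapped with GNA lower on average. The difference for RPS27 was 0.37 ± 0.10 (SE), edgeR adjusted p = 0.0184. It was 0.37 (edgeR adjusted p = 0.0229) for RPL10, whose log2 fold change was 0.38 in shNRF2 cells and 0.01 in shNC cells. For RPS2 it was 0.35 (edgeR adjusted p = 0.0167) and for RPL27 0.34 (edgeR adjusted p = 0.0148).

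RPL27 (chr17:42998273-43002959), a 60S protein, had 1042, 1077 and 1059 CPM with GNA and 915, 968 and 997 CPM with DMSO in shNRF2 cells, and 1311, 1087 and 1151 CPM with GNA and 1243, 1512 and 1327 CPM with DMSO in shNC cells. It is highest in shNC DMSO 2, and every shNRF2 library is below every shNC library. RPL27 passed the test as lower with GNA in shNC cells and did not pass in shNRF2 cells. RPLP0 and RPL19 were also among the 7, with differences of 0.27 (edgeR adjusted p = 0.0302) and 0.25 (edgeR adjusted p = 0.0245). RPL12 and RPLP2 had differences of a like size, 0.27 and 0.25, that did not pass (edgeR adjusted p = 0.0629 and 0.0532).

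This count moved widely with the libraries and the tool. It was 0 without shNC GNA 2, 35 without shNC DMSO 1, 31 without shNC GNA 1 and 61 without the pair shNC DMSO 1 and shNC GNA 1. That pair was picked by its values in these members, so the 61 is no support for a difference. DESeq2 gave 12, no filter on low counts 18, library totals 4 and limma on log2 FPKM 0. The share of all genes called in these fits is not given, so the counts show only how the calls move.

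**Figure D5:**
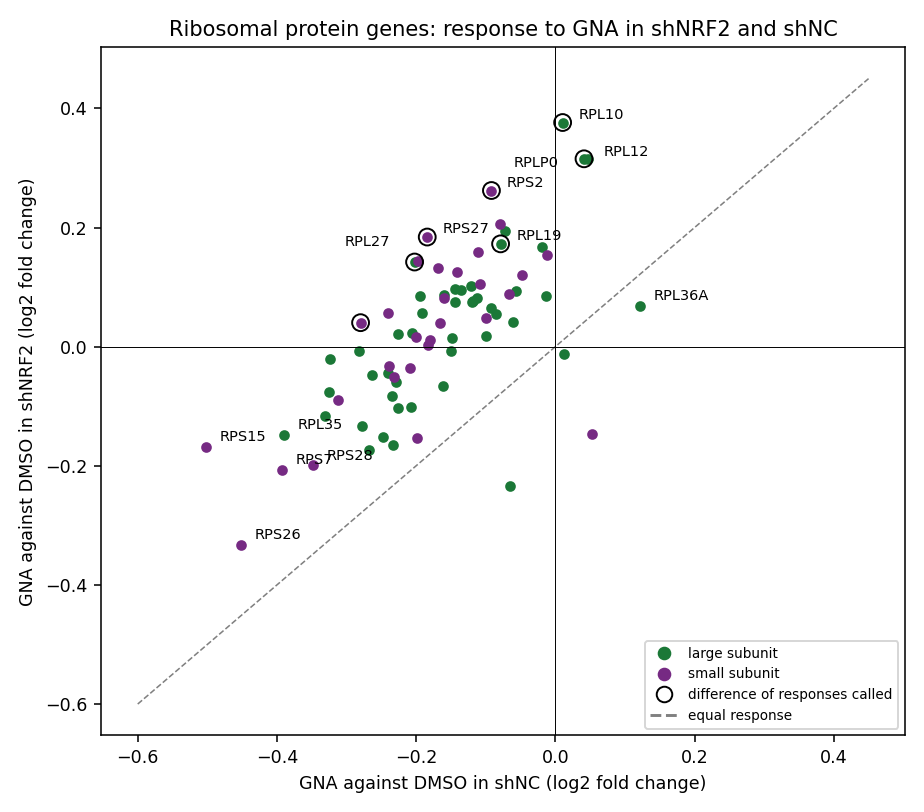
log2 fold change with GNA in shNRF2 cells (vertical) against that in shNC cells (horizontal) for the 75 tested members, large subunit in green and small subunit in purple. The dashed line marks an equal response, and rings mark the 7 members whose difference passed the edgeR test. Most points lie above the line, and RPS26, RPS7 and RPS15 lie at the lower left.

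Across the 4 groups, the mean CPM was highest in shNC DMSO for 68 of 75 members. The most common order, in 40 members, was shNC DMSO, shNC GNA, shNRF2 GNA and shNRF2 DMSO from high to low, and the next, in 26 members, had the shNRF2 groups swapped. shNRF2 DMSO was lowest for 45 members and shNRF2 GNA for 29. Neighbouring groups in these orders often overlap: RPLP2, with 626, 632 and 639 CPM with GNA and 607, 629.9 and 634 CPM with DMSO in shNRF2 cells, and 868, 759.8 and 725 CPM with GNA and 863, 977 and 911 CPM with DMSO in shNC cells, shows shNRF2 groups that overlap and shNC groups that overlap.

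Ribosomal proteins fused to ubiquitin or a ubiquitin-like protein, which are outside the rule, moved with the members. All 3 were lower in shNRF2 than in shNC cells in DMSO, and 2 of them also under GNA. With GNA, edgeR called 2 lower in shNC cells and 0 in shNRF2 cells. Over all genes 18.3% were lower between the lines in DMSO and 13.3% under GNA. With GNA 16.1% of all genes were lower in shNC and 17.0% in shNRF2 cells. RPS27A, the ubiquitin fusion of a 40S protein, had 195, 211 and 199 CPM with GNA and 187, 209 and 226 CPM with DMSO in shNRF2 cells, and 309, 263 and 227 CPM with GNA and 288, 350.0 and 312 CPM with DMSO in shNC cells. Its log2 fold change between the lines was -0.61 in DMSO and -0.40 under GNA. The shNRF2 libraries of RPS27A were all below the shNC libraries. FAU, the fusion of a 40S protein, had log2 fold changes of -0.32 in DMSO and -0.10 under GNA, the second of which was not called.

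Of 8 paralogs, variant copies of ribosomal protein genes, 6 were tested, and 3 of these were lower in shNRF2 than in shNC cells in DMSO (median -0.18) and 2 under GNA (median -0.09). Over all genes 18.3% were called lower in DMSO and 13.3% under GNA. RPS27L and RPL36AL were lower in shNRF2 than in shNC cells under both treatments. RPL36AL had 412, 399 and 441 CPM in shNRF2 DMSO, against 583, 621 and 592 CPM in shNC DMSO (log2 fold change -0.52, edgeR adjusted p = 3.52e-08) without overlap, whereas RPL36A itself passed no test, and reads of such copies may be shared. RPS27L, also a p53 target, had 87.8, 91.6 and 96.8 CPM in shNRF2 DMSO, against 116, 158 and 141 CPM in shNC DMSO (log2 fold change -0.59, edgeR adjusted p = 3.81e-06). RPL7L1 was lower in DMSO only (-0.29). RPL22L1, RPL26L1 and RPL39L had log2 fold changes between the lines in DMSO of -0.08, -0.06 and 0.19, none of them called.

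Proteins of the mitochondrial ribosome, encoded by nuclear genes but serving another ribosome, were counted in the same way. With GNA 23 of 76 were lower and 4 higher in shNRF2 cells, with a median log2 fold change of -0.12, against 17.0% and 16.7% of all genes called lower and higher. In shNC cells 43 were lower and 1 higher with GNA, with a median of -0.26, against 16.1% and 14.6%. Between shNRF2 and shNC 35 were lower and 0 higher in DMSO (median -0.21), against 18.3% and 16.8% of all genes. Under GNA 15 were lower and 1 higher (median -0.08), against 13.3% and 12.8%. Ribosomal protein pseudogenes, of which 88 passed the filter, were lower between the lines in DMSO in 25 and higher in 4 (median -0.33). The shares over all genes were again 18.3% and 16.8%.

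Ribosome biogenesis factors, which transcribe, modify and assemble ribosomal RNA, were called as follows. In shNRF2 cells 15 of 32 were lower and 4 higher with GNA (median -0.13), against 17.0% and 16.7% of all genes. In shNC cells 21 were lower and 2 higher (median -0.23), against 16.1% and 14.6% of all genes. Between shNRF2 and shNC in DMSO more of these factors were lower than higher, with the largest falls in EIF6 (-0.46) and NOP56 (-0.39). Those called higher were POLR1A (0.22), TAF1D (0.20) and UBTF (0.14). No enrichment was tested for this or the other related lists. NCL, encoding nucleolin, had 6272, 6323 and 5839.8 CPM with GNA and 8069.5, 8139.6 and 8409 CPM with DMSO in shNRF2 cells, and 7115, 6810.4 and 6709 CPM with GNA and 9292, 9426 and 9688 CPM with DMSO in shNC cells, lower with GNA by 25.1% in shNRF2 and by 27.4% in shNC cells. NOP58, a core protein of box C/D small nucleolar particles, had log2 fold changes of -0.16 in shNRF2 and -0.43 in shNC cells. TAF1D, a subunit of the polymerase I selectivity factor, rose with GNA in both (0.39 and 0.38). Of 8 chaperones of ribosomal proteins 7 were lower in shNRF2 than in shNC cells in DMSO (median -0.25), against 18.3% of all genes. BCCIP, a chaperone of RPL23, fell the most (-0.67, edgeR adjusted p = 3.62e-10).

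Several translation factors are encoded by messenger RNAs known to carry the same TOP tract. The list of such genes used here also holds TPT1, RACK1, NACA, NAP1L1, HNRNPA1 and NPM1, which are not translation factors. Between the lines in DMSO 9 of the 16 listed genes tested were lower and 0 higher (median -0.15). Over all genes 18.3% were called lower and 16.8% higher. The translation factors among those lower were EEF1B2, EEF2, EIF3E and EIF3H. EEF1B2, a subunit of the elongation factor exchange complex, had a log2 fold change of -0.40 (edgeR adjusted p = 2.35e-05), and NPM1, a nucleolar histone and ribosome chaperone, of -0.40 (edgeR adjusted p = 1.19e-06). EEF1A1, the most abundant elongation factor, had 3037, 3224 and 3469 CPM in shNRF2 DMSO, against 3296, 3758 and 3628 CPM in shNC DMSO and was not called (-0.13, edgeR adjusted p = 0.0561). With GNA in shNRF2 cells 2 rose (EEF2 and TPT1) and 4 fell (median -0.0057), and in shNC cells 1 rose (EEF2) and 5 fell (median -0.12), against 16.7% and 17.0% of all genes called higher and lower in shNRF2 cells and 14.6% and 16.1% in shNC cells. TPT1, a TOP messenger RNA itself, had a difference of the GNA response of 0.27 (edgeR adjusted p = 0.0475).

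Of 14 tested genes that control ribosomal protein synthesis, 6 were higher and 5 lower in shNRF2 than in shNC cells in DMSO (median 0.08). Over all genes 16.8% were called higher and 18.3% lower. LARP1, which binds TOP tracts, passed no test and had a log2 fold change of 0.04 between the lines in DMSO. MYC, a driver of ribosome synthesis, was lower in shNRF2 than in shNC cells (-0.22 in DMSO and -0.25 under GNA) and with GNA than with DMSO (-0.34 in shNRF2 and -0.31 in shNC cells). EIF4EBP1, the translation repressor that mTOR inactivates, had 119, 126 and 121 CPM with GNA and 84.6, 86.2 and 85.9 CPM with DMSO in shNRF2 cells, and 96.9, 109.6 and 109 CPM with GNA and 49.1, 59.0 and 55.8 CPM with DMSO in shNC cells. It rose with GNA in both lines, less in shNRF2 (difference -0.43, edgeR adjusted p = 0.00342). MAF1, a repressor of RNA polymerase III, rose with GNA in shNC cells (log2 fold change 0.76, edgeR adjusted p = 3.27e-06) and had -0.02 in shNRF2 cells, a difference of -0.78 (edgeR adjusted p = 0.00311). TSC1, an inhibitor of mTOR, rose with GNA in both lines (0.37 in shNRF2 and 0.43 in shNC cells). Their part in the ribosomal protein levels was not tested.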

How the data were processed

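The authors deposited raw counts per gene and FPKM values for the same 61510 genes and 12 libraries of A549/DDP cells. Per the submitters' processing notes the build was GRCh38 and DESeq2 was used. Aligner, counter, annotation and the treatment of multiply mapped reads: not given in the sources used here. A gene length that links the deposited counts, the column total and the deposited FPKM was equal in the 12 libraries (its range under 0.001 of its mean) in 100% of 9734 genes checked. FPKM values were used for levels between genes and as an alternative. The single-cell data named in the series were not analysed here.

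Genes were filtered with filterByExpr (minimum count 10, minimum total 15), which left 15653 genes with 99.8% of counts. A further 23496 genes were at 0 throughout. After TMM scaling, edgeR 4.0.16 (quasi-likelihood test, R 4.3.3) was fitted to all 4 groups, which leaves 8 residual degrees of freedom. Genes with a Benjamini-Hochberg adjusted p under 0.05 over all tested genes were called. For single values, 3 against 3 libraries allow no exact permutation p below 0.1, so none was tested. The scripts were tested on simulated data with known changes in genes of all levels. Of 1.2-fold changes 15% were recovered for GNA in shNC cells and 12% between the lines in DMSO. Of 1.5-fold changes 56% and 48.5% were recovered, and 1.39% and 7.81% of calls were false. A gene that was not called can therefore still differ.

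Alternatives were other scalings, other filters, DESeq2 1.42.0, limma 3.58.1 on log2 FPKM, a replicate block, fits of just the groups in question and fits without single libraries. Counts of members under the alternatives are given without the share of all genes called in the same fit. They show how the calls move and are not a result about the members. Named members were the 5 largest called rises and falls of each comparison and the extremes of FPKM, others being named after their values were seen, and a few results are not reported here. The members and lists were chosen with earlier results of these data known. Gene positions are from RefSeq, and start sites from RefSeq (GRCh38.p14) for 61 members. Shared exons and hosted small nucleolar RNAs are from GENCODE 29. Intervals were not used for shares, and replicate spread is given in their place.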

Additional observations from a re-analysis of the deposited data

Results flagged for a closer look

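For 7 members, 6 of them named here, the response to GNA differed between the lines by a test of the difference itself (edgeR, from the 4 groups). The differences, shNRF2 minus shNC on the log2 scale, were 0.37 for RPS27, 0.37 for RPL10, 0.35 for RPS2, 0.34 for RPL27, 0.27 for RPLP0 and 0.25 for RPL19. Each of them had a higher fold change with GNA in shNRF2 than in shNC cells. Leaving out 1 library at a time left between 0 and 35 members past the threshold. The hairpin target NFE2L2 differed in the other direction, by -0.30 (edgeR adjusted p = 0.045): its log2 fold change with GNA was -0.13 in shNRF2 cells and 0.17 in shNC cells.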

How the results depend on the processing

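The fall between shNRF2 and shNC in DMSO kept its direction and stayed within 1.5 times its count under all alternatives, from 60 members by limma on log2(FPKM + 1) to 69. Library totals alone gave 9 members lower and 1 higher with GNA in shNC, 20 higher but 1 lower with GNA in shNRF2, and 4 with a higher response in shNRF2; they moved the median of all genes with GNA in shNC from 0.02 to 0.12. limma on log2(FPKM + 1) and log2(FPKM + 0.1) gave 5 and 5 lower with GNA in shNC, 0 and 0 lower with GNA in shNRF2, 16 and 15 lower in shNRF2 under GNA, and 0 and 0 for the difference of responses. No filter on low counts gave 5 lower with GNA in shNRF2 and 18 for the difference, DESeq2 gave 12 for the difference, and a fit of only the groups compared gave 8 lower with GNA in shNRF2. Without the pair shNC DMSO 1 and shNC GNA 1, added after seeing the data, 64 were lower with GNA in shNC, 14 higher but 7 lower with GNA in shNRF2, 26 lower and 1 higher in shNRF2 under GNA, and 61 differed in response. Picking the pair by its values in these members widens the shNC contrast by construction. Leaving out single libraries gave 15 to 56 lower with GNA in shNC, 5 to 12 higher but 0 to 5 lower with GNA in shNRF2, 64 to 69 and 13 to 52 lower in shNRF2 with DMSO and with GNA, and 0 to 35 for the difference. The members' share of counts changed with GNA in shNC by -0.137 percentage points, by -0.321 to 0.00417 without single libraries (0.00417, the other direction, without shNC DMSO 2) and by -0.479 without the pair. With GNA in shNRF2 it changed by 0.264 (0.177 to 0.357 without single libraries) and by 0.629 as a share of summed FPKM; between the lines it was -0.783 in DMSO (-0.941 to -0.642) and -0.383 under GNA (-0.515 to -0.199). The cause of these shifts was not tested. Replicate numbers gave no pairing: among 18 same-numbered pairs 0 exceeded a correlation of 0.1, and the best partner of a library had its own number in 2 of 12 cases. With the replicate block 31 members were lower with GNA in shNC, 9 higher but 2 lower with GNA in shNRF2, 68 and 36 lower in shNRF2 with DMSO and GNA, and 6 differed in response. Over 56 named genes, fold changes called under neither setting changed sign 171 times in 6663 fits, the largest of them 0.17 in size, and called ones did not change sign.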
